A study of Mus musculus with 4 samples.

Results

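The comparison described here is that of Ruvbl2 siRNA with control siRNA in RAW264.7 cells under LPS, read from 2 of the 4 arrays of the series, 1 for each siRNA. RAW264.7 is an established mouse macrophage-like cell line. The control cells received a non-targeting siRNA and the others a SMARTpool, a mixture of siRNA duplexes, against Ruvbl2. Both sample titles of the pool spell its target Rvbl2, which was read as Ruvbl2 because the series names RUVBL2. Cells were analysed 2 days after transfection, which was done by electroporation or with a lipid reagent, and which of these was used for these samples is not given in the sources used here. LPS, lipopolysaccharide of the bacterial outer membrane, was given to both groups compared, and its dose and duration are also not given. The other arrays hold the same siRNAs with DMSO, a solvent, in place of LPS. Genes entered the comparison when their probe was well above background, as the scanner software judged it, on both LPS arrays and had a level of at least -2 on the brighter array. A level here is the log2 of the processed signal after subtracting the 75th percentile of the RNA probes on that array, so that 0 marks this percentile. This left 10717 of the 22911 named genes and 20787 of the 56605 RNA probes. Every difference below is the Ruvbl2 siRNA level minus the control siRNA level on the log2 scale, and a gene is called higher or lower where the difference reached 2-fold. Each group has a single array (n = 1), so the values carry no replicate error and were not tested, and they describe these arrays.

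RUVBL2 and its partner RUVBL1 are AAA+ ATPases that form rings together. They are subunits of the INO80, SRCAP and TIP60 chromatin complexes and of the R2TP chaperone complex, which helps to assemble PIKK-family kinases, box C/D snoRNPs and RNA polymerase II. LPS is sensed by Toll-like receptor 4, whose adaptors lead to NF-kB, MAP kinases and IRF3. In macrophages these switch on cytokines and chemokines, and interferon beta made by the cells then raises antiviral genes. Some LPS-induced genes, such as Tnf, are transcribed at once, while others, such as Il6 and Nos2, also need chromatin remodelling and newly made factors.

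On the 4 arrays 54.1% to 55.0% of RNA spots were well above background, and none was saturated. The 75th percentile of the processed signal ran from 331 to 456. Replicate spots of the same probe gave a median technical SD of a log2 difference of 0.24 where levels were -4 to -2 (6 probes). It was 0.11 at levels of 0 to 2 (5 probes) and 0.050 for those above 4 (270 probes). Between -2 and 0 it was 0.15 from 1 probe for added control RNA, so the values for dim genes rest on few probes. That SD covers spot-to-spot error within an array, not the spread between cultures. The slide's first row held the control siRNA arrays and its second row the Ruvbl2 siRNA arrays, and the effects of row and siRNA cannot be told apart. Of 10 macrophage markers, 9 were well above background on each array and 0 were called, with differences from -0.54 to 0.35 and a summed signal on the Ruvbl2 siRNA LPS array 1.08 times that on the control siRNA LPS array. Of 6 T cell markers 4 were above background, with a summed signal ratio of 0.976. In the marker lists of B cells, neutrophils, mast cells, fibroblasts, epithelium, endothelium and erythroid cells 0 to 3 members were above background on any array. The largest change among their summed signals was that of 4 endothelial markers (0.578 times), none of which entered the comparison.

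Ruvbl2 mRNA was modestly lower on the Ruvbl2 siRNA arrays. Its brighter probe, A_55_P2025974, had a level of 5.01 with control siRNA and 4.67 with Ruvbl2 siRNA in DMSO, and of 4.92 and 4.52 in LPS. Both Ruvbl2 siRNA arrays lay below both control arrays. The LPS difference was -0.40, which is 75.8% of control, and 854 genes (7.97% of those measured) had a difference as low or lower. The second probe of Ruvbl2, A_55_P2928822, was far dimmer and differed by -0.11 in LPS and by -0.55 in DMSO. Ruvbl1 had levels of 5.43 and 5.58 in LPS, a difference of 0.14. RUVBL2 protein was not measured, and neither gene reached 2-fold.

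Few genes differed by 2-fold between the siRNAs under LPS (1.35% of those measured), and most of those were lower with Ruvbl2 siRNA. Of the 10717 genes, 36 were called higher (0.336%) and 109 lower (1.02%). The median difference of all genes was 0.01, with quartiles at -0.16 and 0.17, with 47.7% of genes below 0 and with 5% below -0.50. At a size of 1.5-fold 231 genes were higher (2.16%) and 401 lower (3.74%), and 4-fold was reached by 5 higher and 10 lower genes. Centring the arrays on 7 E1A spike-in probes, RNA of known amount added before labelling, in place of the 75th percentile moved every difference by 0.0088, and no called gene turned. With normexp background correction and quantile normalization, which draw dim signals together, the counts were 18 higher and 71 lower, of which 17 and 71 are among those above. Further probes, 28 in all, were measured for 27 called genes. Of these probes 27 pointed the same way as the first and 20 were past 2-fold, the exception in direction being Mbd1 (-1.17 by its brighter probe and 0.29 by the other). Of the called genes, 12 higher and 27 lower had the dimmer of their LPS arrays under a level of -2, against 233 of all genes measured, and these were measured only because the other array was brighter. The genes nearest to that limit, clone, Gm and LOC symbols left out, differed little. Dse, Vxn and Acnat1 just inside it differed by -0.24, 0.06 and 0.20, and Ang, Creb3l4 and Itgb4 just outside by -0.35, -0.17 and 0.28. These few genes do not stand for all dim genes: with no level minimum 65 genes were higher and 153 lower of 12782.

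**Figure D1:**
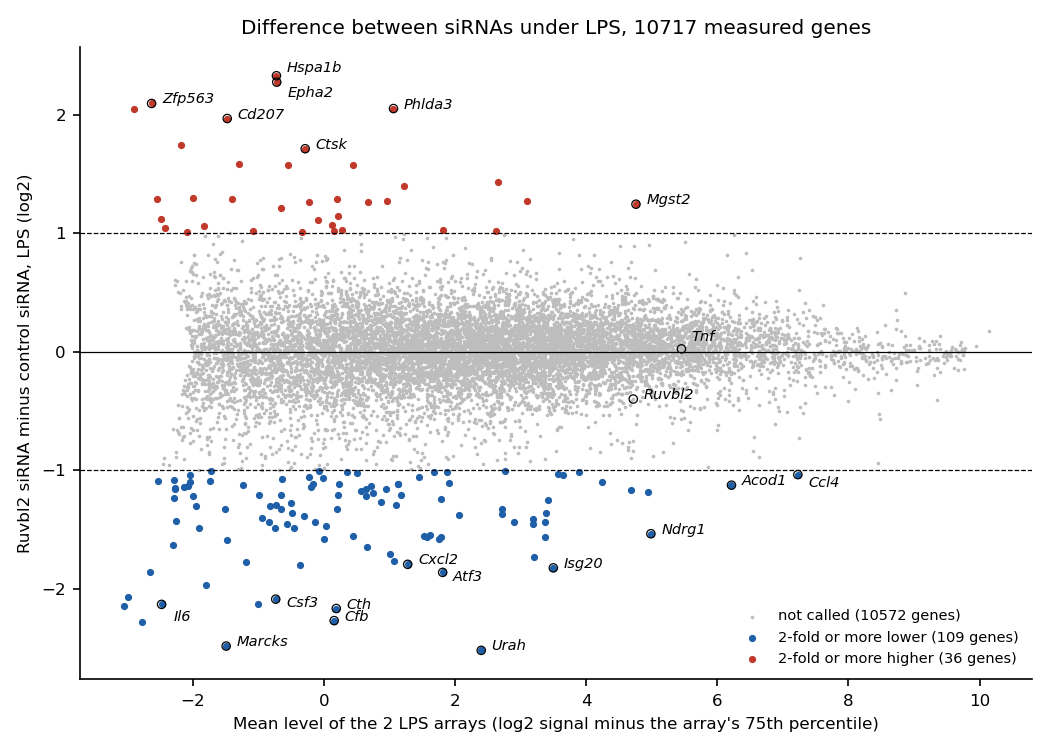
Difference between Ruvbl2 and control siRNA under LPS (y axis, log2) against the mean level on the LPS arrays (x axis, log2 signal minus the array's 75th percentile) for 10717 genes, 1 point a gene, with dashed lines at 2-fold. The 109 genes called lower spread over the whole range of levels up to Ccl4 and Acod1, while the 36 called higher lie mostly at lower levels, and Tnf and Ruvbl2 fall inside the dashed lines.

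Among classes and families with more than 2 measured genes, costimulatory and checkpoint molecules (-0.49) had the lowest median, against 0.01 for all genes. Next were targets of the stress transcription factor ATF4 (-0.48), chemokines (-0.42) and the genes of glycolysis and hypoxia (-0.37). At the other end stood the Snhg genes, noncoding hosts of snoRNAs (0.25), osteoclast genes (0.22) and splicing factors (0.20). Altogether 54 functional classes and 42 families of related symbols were described. They held 3589 of the measured genes, 60 of the 109 lower and 10 of the 36 higher. Classes share members, and members of a class are not replicates of each other. The classes drawn in the plot of class members were chosen after their values were seen.

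**Figure D2:**
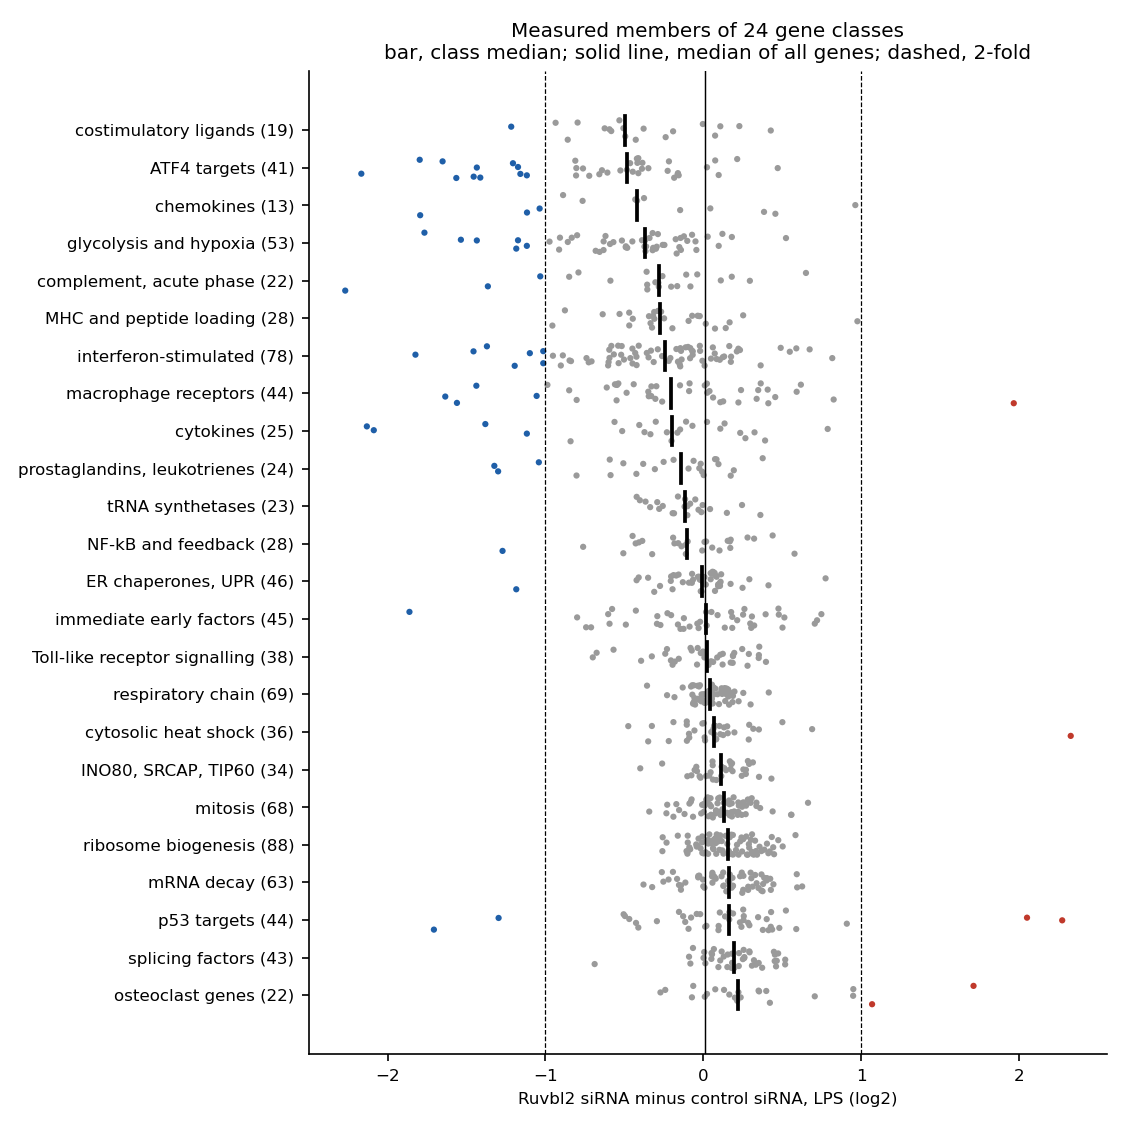
Ruvbl2 siRNA minus control siRNA under LPS (x axis, log2) for the measured members of 24 classes, 1 point a gene, with the number measured in brackets, called members in blue (lower) or red (higher), black bars at class medians and a solid line at the median of all genes. The ATF4 and glycolysis classes hold 11 and 6 blue points and lie mostly left of the line. The row labelled costimulatory ligands holds costimulatory and checkpoint molecules. Toll-like receptor signalling, with a median of 0.02, has 0 called members, where 1.35% of all genes were called.

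Promoter sequence is shown for 7 of the lower genes whose bases before the start site hold 1 of these binding motifs: that of NF-kB, shown for a cytokine and a chemokine, the interferon-stimulated response element (ISRE), the composite element bound by C/EBP and ATF4 proteins, and the core of the hypoxia response element. Atf3 is shown for the composite element although it stood in the list of early factors and not in that of ATF4 targets. The stretches are from the RefSeq annotation of build GRCm38.p6, written 5′ to 3′ on the gene's own strand, and end at the base before the start site. Capitals mark matches to GGGNNNTTC (NF-kB), GAAANNGAA (ISRE), TGATGCAA (composite) or ACGTGC (hypoxia core), each searched on both strands.
Il6 (chr5:30013014-30013113, plus strand) has 1 NF-kB match, from 44 to 36 bases before the start, and Cxcl2 (chr5:90903779-90903898, plus strand) has 3, of which the first and second overlap on opposite strands.
Il6: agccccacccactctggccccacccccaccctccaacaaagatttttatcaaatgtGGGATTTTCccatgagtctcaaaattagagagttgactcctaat
Cxcl2: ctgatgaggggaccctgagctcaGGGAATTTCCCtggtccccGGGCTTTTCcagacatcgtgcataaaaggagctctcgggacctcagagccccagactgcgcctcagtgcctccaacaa
Ifit3 (chr19:34583369-34583528, plus strand) has 3 ISRE matches, all on the opposite strand.
Ifit3: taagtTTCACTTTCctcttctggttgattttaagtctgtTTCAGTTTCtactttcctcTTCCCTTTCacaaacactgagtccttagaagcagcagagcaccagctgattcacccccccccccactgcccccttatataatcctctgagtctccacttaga
Atf3 (chr1:191183334-191183463, minus strand) and Chac1 (chr2:119351042-119351241, plus strand) each have 1 composite match, from 110 and 193 bases before the start.
Atf3: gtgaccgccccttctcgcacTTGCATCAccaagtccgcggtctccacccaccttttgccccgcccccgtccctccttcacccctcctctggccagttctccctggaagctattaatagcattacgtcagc
Chac1: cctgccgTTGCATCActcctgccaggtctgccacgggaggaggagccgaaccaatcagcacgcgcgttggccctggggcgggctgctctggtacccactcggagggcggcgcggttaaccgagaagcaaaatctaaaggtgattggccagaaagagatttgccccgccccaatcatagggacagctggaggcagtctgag
Ddit4 (chr10:59951771-59951970, minus strand) and Ero1a (chr14:45318573-45318662, minus strand) each have 1 match to the hypoxia core, from 187 and 64 bases before the start.
Ddit4: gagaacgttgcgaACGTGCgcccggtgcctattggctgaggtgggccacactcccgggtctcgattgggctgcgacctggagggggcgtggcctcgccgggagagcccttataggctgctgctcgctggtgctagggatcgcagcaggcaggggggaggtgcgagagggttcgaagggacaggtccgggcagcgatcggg
Ero1a: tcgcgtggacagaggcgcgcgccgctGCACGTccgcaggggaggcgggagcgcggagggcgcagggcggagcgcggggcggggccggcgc
In the 250 bases before the start, the NF-kB letters occurred in 20.6% of the 97 promoters of 80 lower genes, in 13% of the 11000 promoters of measured genes and in 11.8% of all 32851 promoters. In the same order, the ISRE letters occurred in 9.28%, 6.15% and 7.13%, the composite element in 4.12%, 0.609% and 0.791%, and the hypoxia core in 5.15%, 6.71% and 4.92%. The hypoxia core was thus no more frequent before lower genes than before measured genes. The 4 lower genes with the composite element were Atf3, Avil, Chac1 and Slc7a7, of which Chac1 alone stood in the list of ATF4 targets. The CRE (TGACGTCA) occurred in 1.03%, 2.76% and 1.55%, again in that order, and paired heat shock units (GAANNTTC) in 2.06%, 4.97% and 6.69%. For the AP-1 site (TGANTCA) the shares were 11.3%, 4.3% and 6.75%. In the 29 promoters of higher genes the AP-1 site occurred in 10.3% (3 promoters) and the NF-kB letters in 6.9%. By class, the ISRE letters were in 41.5% of the promoters of measured interferon-stimulated genes, the hypoxia core in 27.4% of those of glycolysis and hypoxia genes, and the composite element in 11.4% of those of ATF4 targets. The NF-kB letters were in 16% of cytokine promoters (4 of 25), in 33.3% of chemokine promoters (3 of 9) and in 26.3% of those of heat shock genes. A match is a run of letters and does not show that a factor bound there.

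Among secreted cytokines, Il6, Csf3 and Il1b were lower with Ruvbl2 siRNA under LPS and Tnf was level. In the order control DMSO, Ruvbl2 siRNA DMSO, control LPS and Ruvbl2 siRNA LPS, which is kept below, the levels of Il6, a cytokine of fever and the acute phase, were -7.24, -7.06, -1.41 and -3.54. Both DMSO values were not well above background. The LPS levels differed by -2.13 (4.38-fold lower), and the Ruvbl2 siRNA value lay in the dim range where the technical SD is largest. Csf3, the granulocyte colony-stimulating factor, stood at -7.34, -7.16, 0.31 and -1.78, a difference of -2.09 (4.25-fold lower). Il1b, the interleukin-1 beta precursor, stood at -5.12, -6.28, 2.75 and 1.37, a difference of -1.38 that its second probe gave as -1.5. Again the DMSO values were below background, so the siRNAs could be compared in LPS alone for these genes. Tnf, by contrast, stood at 3.47, 3.46, 5.44 and 5.46, so that its siRNA difference was 0.02 under LPS. Vegfa, the vascular growth factor, was the fourth called member (-1.12). Outside this list, Il1f6, an older symbol of interleukin-36 alpha, differed by -1.30, or by -0.77 with normexp correction. Of 25 measured cytokines 0 were called higher and 4 lower (16%, against 1.02% of all genes). Their median was -0.20, with 17 below 0. Uncalled members ran from Flt3l (-0.84), a growth factor for dendritic cell precursors, and Igf1 (-0.56) to the B cell survival factor Tnfsf13b (0.32) and Vegfc (0.79). Il10 and Ifnb1 were above background on both LPS arrays but under the level minimum, Il1a was above background on the control array alone, and Il12b on neither.

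Among chemokines Cxcl2, Ccl4 and Ccl6 were lower, and the other measured ones did not reach 2-fold. Cxcl2, which draws neutrophils, had levels of -2.73, -3.12, 2.17 and 0.38, a difference of -1.79 (3.47-fold lower). Ccl4, a chemokine for monocytes and T cells, had 3.74, 3.16, 7.75 and 6.71, a difference of -1.04 (-1.08 by its second probe), and its close relative Ccl3 differed by -0.89, short of 2-fold. Ccl6 differed by -1.12, and by -0.93 after normexp background correction. Ccl2, the main chemokine for monocytes, had 6.39 and 5.97 under LPS, a difference of -0.42, and Ccl5 had 4.96 and 4.82. Cxcl10, an interferon-induced chemokine for T cells, had levels of 2.5, 1.41, 3.01 and 2.63, so that its difference was -0.38 under LPS and -1.09 in DMSO. Of 13 measured chemokines 3 were called lower (23.1%, against 1.02% of all genes) and 0 higher. Among them 9 lay below 0 (47.7% of all genes did), and the highest was Cxcl14 (0.96). On the receptor side, Ccrl2, a non-signalling receptor that presents chemerin, was lower by 2.80-fold. The 46 other cytokine and chemokine receptors were not called, so 2.13% of the class was lower, against 1.02% of all genes. The median of the 47 receptors was 0.00, with Tnfrsf1b, a TNF receptor, and Il7r, the interleukin-7 receptor, both at -0.82, and Cxcr3, a receptor for interferon-induced chemokines, at 0.78.

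**Figure D3:**
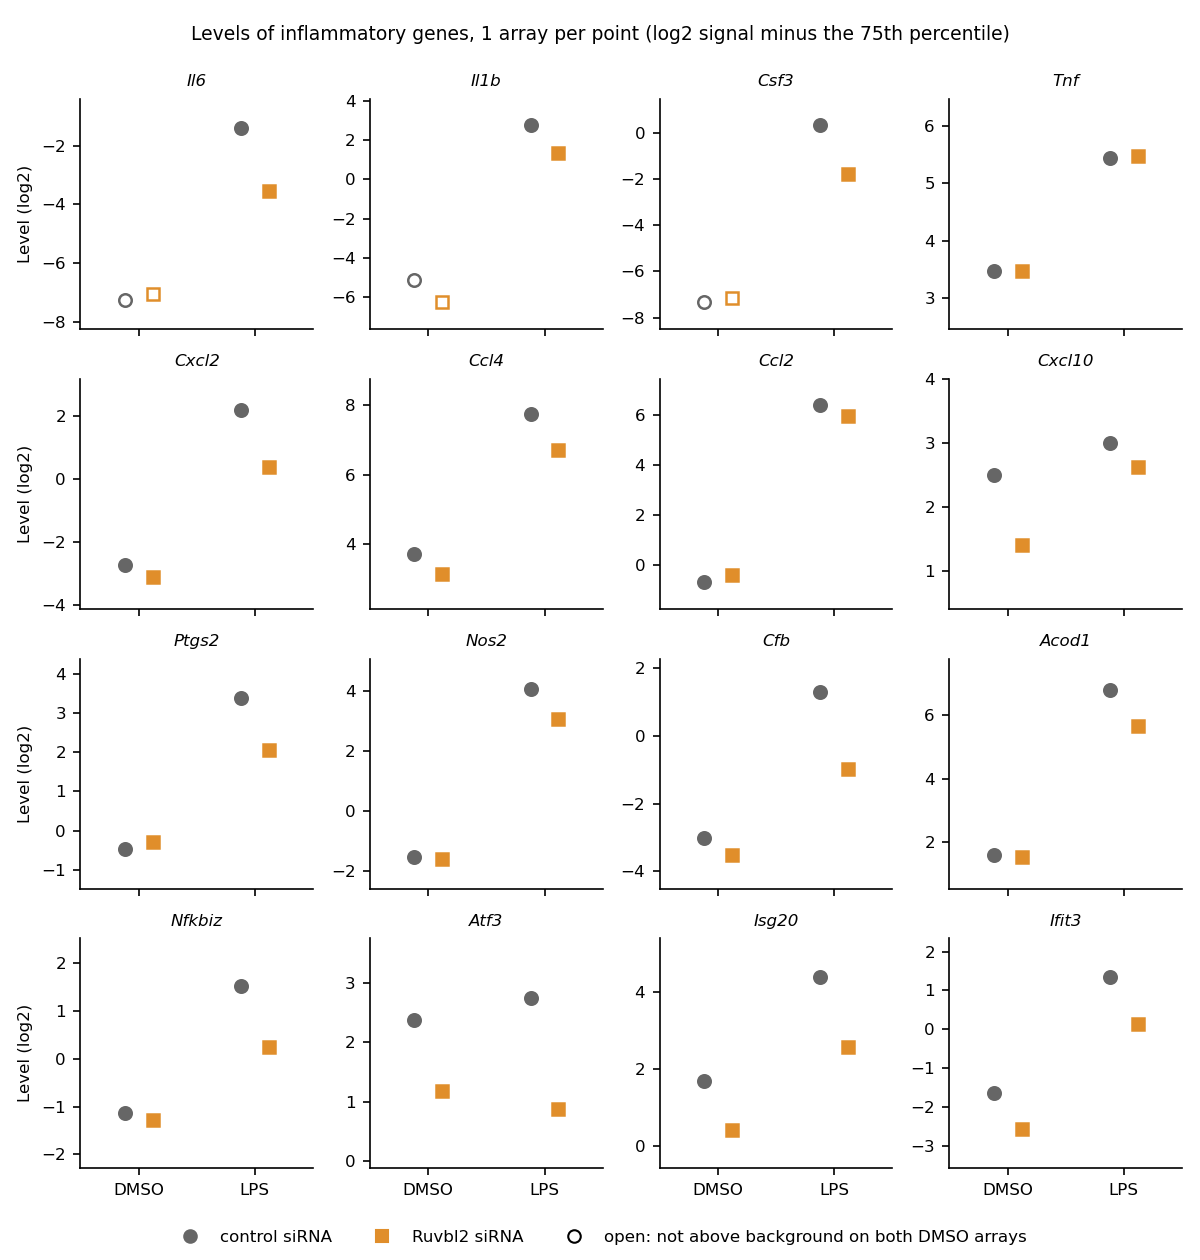
Level on each of the 4 arrays (y axis, log2 signal minus the 75th percentile, own scale in each panel) for 16 genes of the LPS response, circles for control siRNA and squares for Ruvbl2 siRNA, open where the gene was not above background on both DMSO arrays. The LPS circle and square stand level for Tnf (5.44 and 5.46) and lie apart by over 2 on the log2 scale for Il6, Csf3 and Cfb, while Atf3, Isg20 and Ifit3 also differ in DMSO.

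Ptgs2, Nos2 and Acod1, enzymes that make inflammatory mediators, were lower, while most other genes of these pathways were not called. Ptgs2, the inducible cyclooxygenase of prostaglandin synthesis, had levels of -0.47, -0.28, 3.38 and 2.06, a difference of -1.32 (2.5-fold lower). The prostacyclin receptor gene Ptgir differed by -1.30 and the leukotriene B4 receptor gene Ltb4r1 by -1.04, both under 2-fold after normexp correction (-0.89 and -0.55). Of 24 measured genes of prostaglandins and leukotrienes 3 were lower (12.5%, against 1.02% of all genes) and 0 higher. Ptges, the inducible prostaglandin E synthase (0.08), Alox5 (0.19), Ptgs1, the constitutive cyclooxygenase (0.38), and the receptor genes Cysltr1 (-0.51) and Ptger4 (-0.25) were not called. Nos2, the inducible nitric oxide synthase, had -1.52, -1.57, 4.09 and 3.06, a difference of -1.03 that became -0.92 with normexp correction. Ass1, which regenerates the arginine that Nos2 uses, differed by -1.21 (-0.85 with normexp correction), the related synthase gene Nos3 by -1.49, and Gch1, which makes the cofactor of nitric oxide synthases, by -0.85. Acod1, which makes itaconate from a citric acid cycle intermediate, had 1.61, 1.55, 6.78 and 5.65, a difference of -1.13. It was the only called gene of 37 measured in the citric acid cycle class (2.70%, against 1.02% of all genes), whose median was -0.02. Hdc, which makes histamine, differed by -1.47.

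Of 22 measured complement, acute phase and antimicrobial genes 3 were lower (13.6%, against 1.02% of all genes). Their median was -0.28, and 18 lay below 0 (47.7% of all genes did). Cfb, complement factor B of the alternative pathway, had levels of -3.01, -3.51, 1.29 and -0.98. The LPS difference of -2.27 (4.82-fold lower) was the fourth lowest of all genes, and a second probe gave -2.28. Wfdc17, a small secreted protein with a whey acidic domain, was 2.58-fold lower. C3, the central complement protein (-0.04), and Lyz2, lysozyme of macrophages (-0.11), were near 0, and Slpi, an inhibitor of neutrophil proteases, was the highest (0.65).

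Surface receptors were split. Fpr2, a formyl peptide receptor that senses bacterial peptides, had levels of -4.14, -3.70, 2.56 and 1.0, a difference of -1.56 (-1.49 by its second probe), and Fpr1 differed by -1.64 (-0.83 with normexp correction). Siglec1, a sialic acid receptor of macrophages, had -3.02, -3.06, 4.09 and 2.65, a difference of -1.44 where its second probe gave -0.65. Fcgr4, an activating Fc receptor, differed by -1.06, or by -0.90 with normexp correction. Against these, Cd207, the C-type lectin langerin, was higher, with levels of -4.66, -2.12, -2.46 and -0.49, a difference of 1.97 in LPS. Of 44 measured macrophage receptors 4 were lower (9.09%, against 1.02% of all genes), 1 higher (2.27%, against 0.336%) and 25 below 0. Among costimulatory and checkpoint molecules, 15 of 19 lay below 0 (47.7% of all genes did). Slamf9, an immunoglobulin-superfamily receptor of myeloid cells, was the called one (-1.22), followed by Cd274, the PD-1 ligand (-0.94), and Cd276 (-0.86), while Cd80 stood at 0.43. The median of -0.49 in this class became -0.37 when only the 12 members with a level of at least 0 were kept. In antigen presentation 22 of 28 genes lay below 0 with 0 called, which in a list of this size lies near the share of all genes (1.35%). B2m, the light chain of MHC class I, differed by -0.47 and Tap1, a peptide transporter, by -0.47. H2-T10 differed by -0.96 and the class II loading gene H2-DMb1 by 0.98. Probes of MHC class I genes can cross-hybridise within the family.

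The sensing pathway itself showed no called gene, which in a list of its size lies near the share of all genes (1.35%). Of 38 measured Toll-like receptors, adaptors and kinases 0 were called, 17 lay below 0 and the median was 0.02. Tlr4, the LPS receptor, differed by -0.19, its adaptors Myd88 by 0.35 and Ticam1, also known as TRIF, by -0.57, and the negative regulator Irak3 by -0.68. Among NF-kB genes, Nfkbiz, which encodes the nuclear IkB-zeta that NF-kB needs at genes such as Il6, had levels of -1.13, -1.29, 1.5 and 0.23, a difference of -1.27 (-0.94 by its second probe). It was the only called gene of 28 (3.57%, against 1.02% of all genes called lower). The NF-kB subunit genes Rela (0.16, with a second probe at 0.71), Nfkb1 (0.17) and Rel (-0.19) and the inhibitors Nfkbia (-0.41) and Tnfaip3 (-0.51) were not called.

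Among transcription factors, Atf3 and Maf were lower and the other early factors were not called. Atf3, a stress-induced repressor of the ATF family, had levels of 2.37, 1.18, 2.74 and 0.88, so that both Ruvbl2 siRNA arrays lay below both control arrays, with differences of -1.19 in DMSO and -1.86 in LPS. Of 45 measured immediate early and related factors it alone was called (2.22%, against 1.02% of all genes called lower). Bhlhe40 (-0.80), Klf4 (-0.60), Egr1 (-0.03), Myc (-0.02) and Fos (0.71) were not. Maf, a factor of macrophage differentiation that also drives Il10, was at -0.82 with control siRNA and -2.79 with Ruvbl2 siRNA in LPS, a difference of -1.97, and not above background on either DMSO array. Of 39 lineage factors it alone was called (2.56%, against 1.02% of all genes called lower). Spi1, the master factor of myeloid cells, stood at 0.14 and Irf8 at -0.66. Feedback genes of MAP kinases (26 measured, median -0.06) and genes of the JAK and STAT pathway (32 measured, median -0.05) had 0 called members. In lists of these sizes that lies near the share of all genes (1.35%). Their members include Dusp1 (-0.51), a MAP kinase phosphatase, Gadd45a (-0.81), a stress sensor, and Socs3 (-0.35), an inhibitor of cytokine signalling.

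Of 78 measured interferon-stimulated genes 7 were called lower (8.97%, against 1.02% of all genes) and 0 higher, and 58 lay below 0, with a median of -0.24. In DMSO the same 78 genes had a median of -0.54, with 67 below 0, 12 lower and 0 higher. Centred on the spike-ins their median was -0.84, where that of all genes was -0.26. Isg20, an exonuclease that degrades viral RNA, had levels of 1.69, 0.41, 4.41 and 2.59, differences of -1.28 in DMSO and -1.82 in LPS. Both Ruvbl2 siRNA arrays were lower than the control array of the same treatment. Ifit3, which binds viral RNA together with other Ifit proteins, had -1.62, -2.57, 1.34 and 0.14, a difference of -1.20 in LPS. Its near-copy Ifit3b differed by -1.46, and probes of the pair may not tell them apart. Slfn4, a Schlafen gene of myeloid cells, differed by -1.37, Zbp1, a sensor of Z-form nucleic acid, by -1.10, the oligoadenylate synthetase relative Oasl2 by -1.01 (-0.84 with normexp correction) and Apol9b by -1.01. Other members had a smaller difference in LPS than in DMSO: Ifi44l differed by -0.71 and -1.88, and Irf7, the factor that amplifies interferon, by -0.57 and -1.19. A few stood on opposite sides of 0 in the treatments, among them the interferon-induced chaperone Rtp4 (0.36 in LPS and -0.92 in DMSO) and Oas2 (0.55 and -0.34). Whether the siRNA difference itself differs between treatments was not tested.

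The ATF4 programme of amino acid synthesis and stress was the class with the most called members, while the chaperones of the endoplasmic reticulum stayed level. ATF4 is the transcription factor made when translation is held back in the integrated stress response, and it raises enzymes and transporters for amino acids. Of 41 measured targets 11 were called lower (26.8%, against 1.02% of all genes) and 0 higher, and 36 lay below 0. Cth, which makes cysteine from cystathionine, had levels of -2.05, -2.16, 1.27 and -0.90, a difference of -2.17 (4.49-fold lower). Aldh1l2, a mitochondrial folate enzyme, had -0.80, -0.85, 0.53 and -1.27, a difference of -1.80 (-1.91 by its second probe). In DMSO these genes differed by -0.11 and -0.05. Trib3, a pseudokinase that feeds back on ATF4, had 1.75, 1.04, 4.16 and 2.59, a difference of -1.56. Chac1, which degrades glutathione, had 1.96, 1.74, 3.89 and 2.48, a difference of -1.41, and Pck2, the mitochondrial phosphoenolpyruvate carboxykinase, had 3.04, 3.07, 3.91 and 2.46, a difference of -1.46. In each of these the control siRNA LPS array was the highest of the 4. The other called members were Soat2 (-1.65), which esterifies cholesterol, Ddit4 (-1.44), Ddit3 (-1.21), which encodes CHOP, the secreted stanniocalcin gene Stc2 (-1.17), the alanine transaminase gene Gpt2 (-1.16) and Vegfa (-1.12). Atf4 mRNA had 7.68, 7.68, 8.20 and 7.78, a difference of -0.42. Asns, asparagine synthetase, differed by -0.61, Phgdh, the first enzyme of serine synthesis, by -0.46, and Slc38a2, an amino acid transporter, by 0.47. In DMSO the median of the same 41 genes was 0.01, with 20 below 0 and 0 called. Centred on the spike-ins it was -0.29, where that of all genes was -0.26.

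Genes next to this programme differed less. Of 23 cytosolic tRNA synthetase genes 19 lay below 0, but the median was -0.12 and the lowest, Sars, stood at -0.42. Of 46 measured chaperones and unfolded protein response genes of the endoplasmic reticulum 24 lay below 0, with a median of -0.01. Hspa5, the main chaperone there, differed by -0.03, Xbp1 by 0.11, Hsp90b1 by 0.01, and Dnajc3, a co-chaperone, was the highest (0.78). The only called member was Ero1a (-1.19), an oxidase for disulfide bonds that is also induced in hypoxia. Thus 2.17% of the class was called lower, against 1.02% of all genes.

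**Figure D4:**
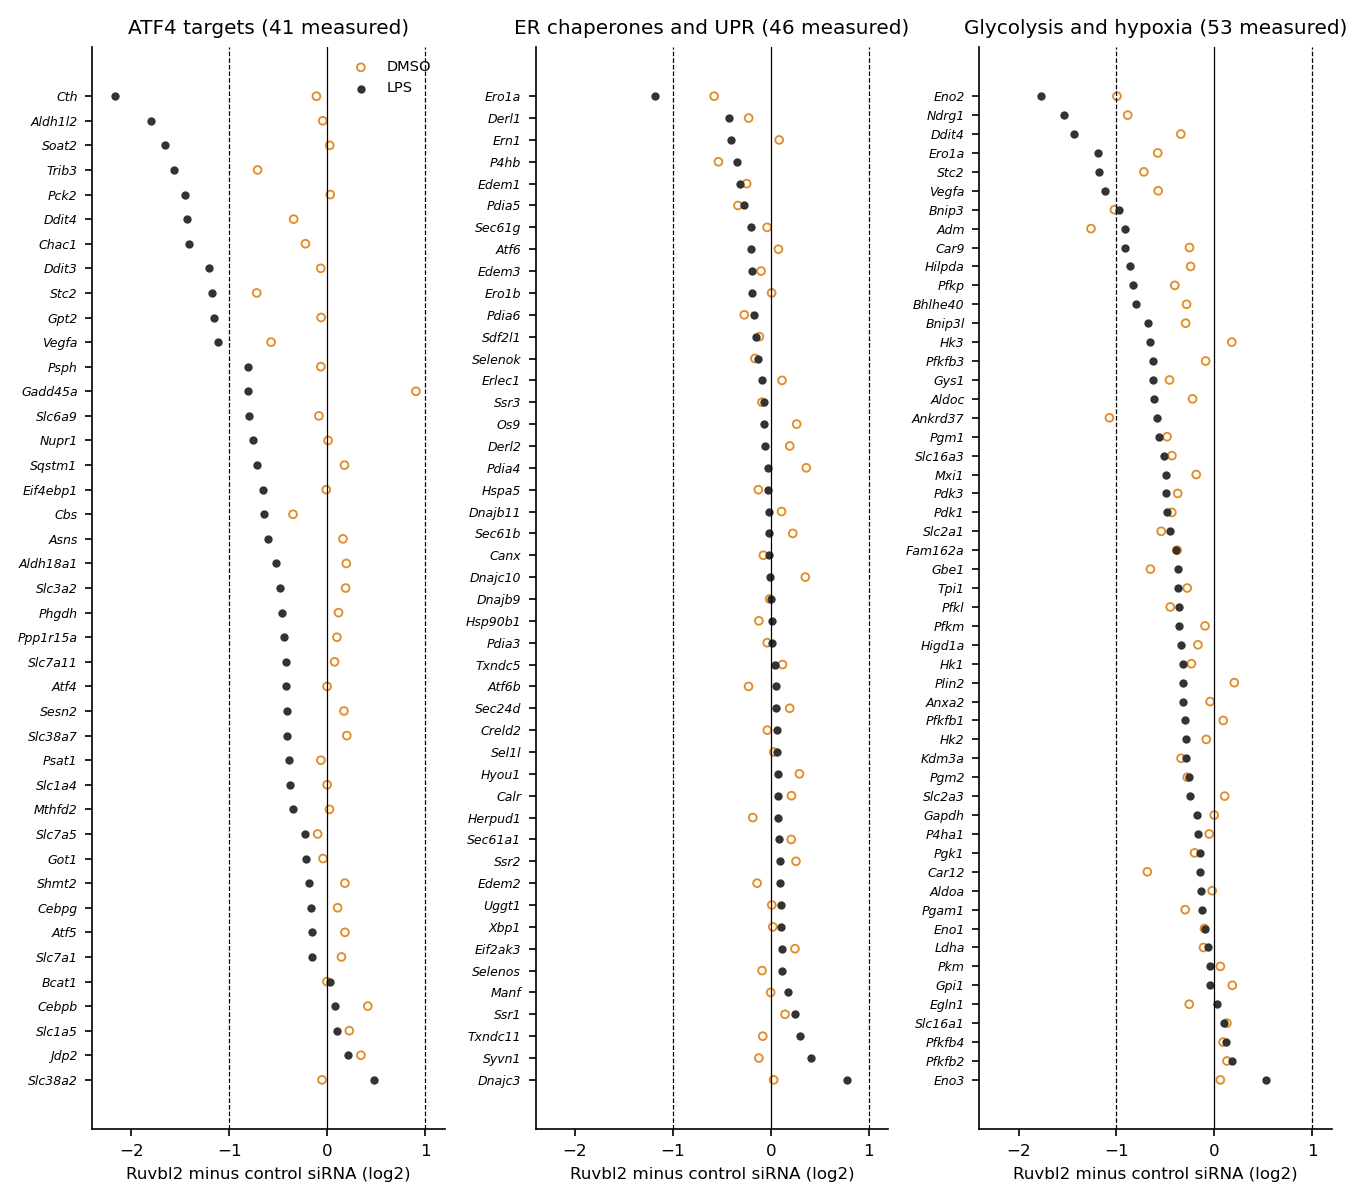
Ruvbl2 siRNA minus control siRNA (x axis, log2) for every measured member of 3 classes, sorted by the LPS difference, filled points for LPS and open points for DMSO, with dashed lines at 2-fold. In the ATF4 class the filled points lie left of the open ones for most genes (medians -0.48 and 0.01). In the endoplasmic reticulum class both lie around 0 (both medians -0.01), and in the glycolysis class both lie left of 0 (medians -0.37 and -0.26). Centred on the spike-ins, the DMSO medians become -0.29, -0.31 and -0.56, beside -0.26 for all genes.

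Of the glycolysis and hypoxia genes most lay below 0 and few reached 2-fold. Hypoxia-inducible factors raise these genes when oxygen is scarce, and in macrophages LPS does so as well. Of 53 measured 48 lay below 0, 6 were called lower (11.3%, against 1.02% of all genes) and 0 higher. Eno2, an enolase, had levels of 1.55, 0.55, 1.95 and 0.19, a difference of -1.77 in LPS and -0.99 in DMSO. Ndrg1, a hypoxia-induced stress gene, had 5.59, 4.71, 5.75 and 4.22, a difference of -1.54 in LPS and -0.89 in DMSO. For both genes the Ruvbl2 siRNA arrays were lower in each treatment. Ero1a had 4.38, 3.80, 5.54 and 4.36. Ddit4, which restrains mTORC1, had 2.68, 2.34, 3.62 and 2.19. Stc2 and Vegfa complete the called members. Among enzymes of the pathway, Pfkp, a phosphofructokinase, differed by -0.83 and Tpi1 by -0.37, the class median. Gapdh (-0.17), Pgk1 (-0.15) and Ldha (-0.07) were nearer to 0. Hif1a mRNA differed by -0.19 and the glucose transporter Slc2a1 by -0.45. The DMSO median was -0.26, with 43 of 53 below 0 and 3 lower. Centred on the spike-ins it was -0.56, where that of all genes was -0.26.

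The largest differences outside these classes were of genes with mixed roles. Urah, which acts in the breakdown of uric acid, had levels of -5.01, -5.19, 3.66 and 1.14, the lowest difference of all genes (-2.52, or 5.74-fold lower). Marcks, a protein kinase C substrate that ties actin to the membrane, had -0.25 and -2.73 in LPS, a difference of -2.48. Pdpn, the mucin-like podoplanin, had -6.11, -7.08, 4.07 and 2.34, a difference of -1.73. None of these 3 genes was above background on both DMSO arrays. Cda, a cytidine deaminase, differed by -1.86, while the nucleotide metabolism class that holds Urah and Cda had a median of 0.04 over 52 genes. Tcn2, which carries vitamin B12, differed by -2.13, Hyal1, which cuts hyaluronan, by -1.78, and Ccng2, an atypical cyclin, by -1.71. Spaca9 (-2.28), Avil (-2.15) and Gipr (-2.07) were dim with Ruvbl2 siRNA, and Avil and Gipr fell short of 2-fold after normexp correction. Gpat3, which makes glycerolipids, differed by -1.55, and Slc7a7, a subunit of an amino acid exporter, by -1.25. Asah2, a ceramidase (-1.15), and Rgs1, a regulator of G protein signalling (-1.14), fell short of 2-fold after normexp correction (-0.62 and -0.96).

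Fewer genes were higher, and the largest difference was that of Hspa1b, an inducible cytosolic heat shock protein. Its levels were 0.51, 0.88, -1.89 and 0.44, so that the control siRNA LPS array was the lowest of the 4 and the LPS difference was 2.33 (5.03-fold higher). Its near-copy Hspa1a can share signal with it, and the probe read for Hspa1a was above background on neither LPS array. Of 36 measured heat shock genes Hspa1b alone was called (2.78%, against 0.336% of all genes called higher), and the median was 0.07. Hsph1, a nucleotide exchange factor for it, differed by 0.69 and the co-chaperone gene Bag3 by 0.50, while Hsp90aa1 (0.00) and Hsf1 (0.13), the heat shock factor, were near 0.

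Epha2, an ephrin receptor tyrosine kinase, had levels of -1.41, -0.07, -1.86 and 0.42, a difference of 1.34 in DMSO and 2.27 in LPS. Phlda3, which restrains Akt at the membrane, had 0.36, 1.77, 0.04 and 2.09, differences of 1.41 and 2.05. In both genes each Ruvbl2 siRNA array lay above both control arrays. Both are known p53 targets. That class of 44 measured genes had 2 higher (4.5%, against 0.336% of all genes) and 2 lower members (4.5%, against 1.02%). Its median was 0.17, with 29 genes above 0. Zmat3 (0.91), Ccng1 (0.59), Trp53 itself (0.43), Mdm2 (0.38), which degrades p53, Bax (0.29), a cell death effector, and Cdkn1a (0.24, with a second probe at 1.05), a cell cycle inhibitor, were above 0 without being called. Fas (-0.50), a death receptor, Trp53inp2 (-0.50), the cell death genes Bbc3 (-0.43) and Pmaip1 (-0.29), and Sesn2 (-0.41) lay below 0 without being called, and Plk2 (-1.30, or -0.95 with normexp correction) and Ccng2 were the lower ones.

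Osteoclast genes leaned higher, with 18 of 22 measured genes above 0 and a median of 0.22 (0.27 in DMSO, or -0.03 there when centred on the spike-ins). For all genes these DMSO medians were 0.04 and -0.26. Ctsk, the collagen-cutting cathepsin of osteoclasts, had levels of -1.62, -0.45, -1.14 and 0.57, a difference of 1.71 (3.28-fold higher) in LPS and 1.17 in DMSO. Mmp9, a matrix metalloproteinase, had -0.42 and 0.65 in LPS, a difference of 1.07 that its second probe gave as 1.46 and normexp correction as 0.84. Nfatc1, the master factor of osteoclasts, and Acp5, their acid phosphatase, each differed by 0.95, and a second probe of Nfatc1 by 0.39. Csf1r (0.35) and Tnfrsf11a, the receptor of RANK ligand (0.40), were closer to 0.

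The remaining higher genes shared no class. Pmepa1, a feedback inhibitor of TGF-beta signalling, had -0.45, 0.73, -1.34 and 0.24, a difference of 1.58. Rab15, a small GTPase of endosome recycling, had -3.79, -2.25, 0.52 and 1.92, a difference of 1.40. Rarb, a retinoic acid receptor, differed by 1.29, Bdh2, a short-chain dehydrogenase, by 1.27, Mgst2, a microsomal glutathione transferase, by 1.25, and the snoRNA genes Snora47 and Snora81 by 1.57 and 1.27. Zfp563 (2.10), Sez6l (2.04) and Ankrd61 (1.75) were dim with control siRNA and fell under 2-fold after normexp correction, as did Mphosph9 (1.30), Tcstv3 (1.29) and Lrrc56 (1.29), whose values then were 0.85, 0.65 and 0.78. Ranbp3l (1.58), Marveld1 (1.26) and Kirrel3 (1.26) stayed past it.

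The complexes in which RUVBL2 works and the machinery of gene expression showed small differences with 0 called genes. Of all genes measured 1.35% were called and 52.3% lay above 0, so 0 calls in any 1 of these lists lies near that share. The INO80, SRCAP and TIP60 class had a median of 0.12 over 34 genes, from Ruvbl2 at -0.40 to Meaf6 at 0.43, and the R2TP, TTT and PIKK class one of 0.13 over 28, with the kinase genes Mtor at 0.01 and Atm at -0.15. RNA polymerase II and Mediator genes had a median of 0.10 over 80, with the largest subunit, Polr2a, at 0.76, and ribosome biogenesis genes one of 0.15 over 88, of which 69 lay above 0. Splicing factors lay above 0 in 39 of 43 cases (median 0.20), mRNA decay genes in 47 of 63 (0.16) and mitosis genes in 55 of 68 (0.13), with Ccnb1, cyclin B1, at 0.66 by its brightest probe and -0.04 and -0.03 by the others. Cytosolic ribosomal protein genes lay below 0 in 67 of 80, but with a median of only -0.05, and respiratory chain genes had a median of 0.04.

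The genes called under LPS mostly lay on the same side of 0 in DMSO, which was read from the other 2 arrays. Of the 36 higher genes 34 could be compared in DMSO, 33 lay above 0 and 8 were past 2-fold in the same direction, with a median of 0.50 (5 past 2-fold and a median of 0.20 when centred on the spike-ins). Of the 109 lower genes 93 could be compared, 74 lay below 0 and 12 were past 2-fold, with a median of -0.38 (30 past 2-fold and a median of -0.69 when centred on the spike-ins). Over all 10677 genes compared in DMSO 59.0% lay above 0 and 41.0% below, the median was 0.04, and 27 were higher (0.253%) and 36 lower (0.337%). Genes past 2-fold in both treatments included Cd207, Epha2, Phlda3, Ctsk, Rab15, Bdh2 and Pmepa1 on the higher side. On the lower side were Atf3, Isg20, Oasl2, Apol9b, Slfn4 and Ccng2, together with Sdc3, the heparan sulfate proteoglycan syndecan-3 (-1.68 in DMSO and -1.55 in LPS), and the near-copies Selenbp1 and Selenbp2. Ptgs2 (0.19), Nos2 (-0.06), Acod1 (-0.05), Siglec1 (-0.05), Cth (-0.11) and Pck2 (0.03) were near 0 in DMSO. The DMSO directions depend on the scaling. Centring on the spike-ins lowered all DMSO differences by 0.30 and their median to -0.26, so that 90.7% of all genes lay below 0, as did 85 of the 93 lower genes, while 28 of the 34 higher genes still lay above 0. The siRNAs share their slide rows in both treatments, and the part of the row in this likeness was not tested.

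**Figure D5:**
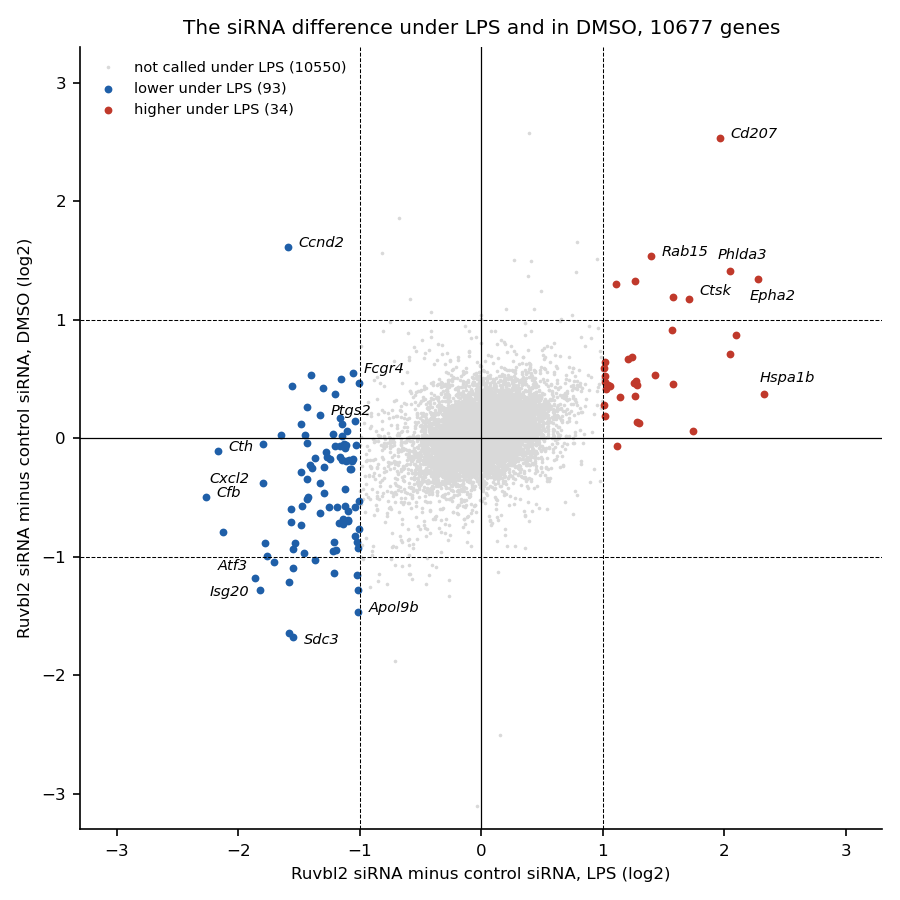
Ruvbl2 siRNA minus control siRNA in DMSO (y axis, log2) against the same difference under LPS (x axis, log2) for 10677 genes, 1 point a gene, with those called under LPS in blue (93 lower) and red (34 higher) and dashed lines at 2-fold. Of the red points 33 lie above 0 in DMSO and 74 blue points below 0 (28 and 85 when centred on the spike-ins), and Ccnd2 alone is past 2-fold in opposite directions.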

How the data were processed

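RNA from 4 samples was labelled with Cy3 and hybridised to 1-colour Agilent arrays on 1 slide. The deposited values are background-subtracted processed signal intensities, written by Feature Extraction 11.5.1.1 per the file headers (11.0 in the submitters' processing notes). The series' value table held the same intensities at all 62976 spots. Outlier and control spots were left out, spots of a probe were averaged, and log2 signals were centred on each array's 75th percentile. A gene with several probes was read from its brightest. Nothing says that the samples were separate cultures. Precision is limited by the number of arrays: with 1 per group no test was run.

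Genes named are Ruvbl2 and Ruvbl1, the 20 largest differences per direction that kept their direction after normexp correction (clone, Gm and LOC symbols left out), up to 4 called members per class and direction, members nearest to 0 or central to a pathway, and a fixed panel of cytokine genes. Names beyond these were chosen after their values were seen. The comparison, classes and lists were chosen with earlier results of these data known. Alternatives were other centring, quantile and cyclic loess normalization, normexp (offset 50) on gMedianSignal and gBGMedianSignal, other level minimums, probe rules and fold sizes. gMeanSignal, the usual input of normexp, is not among the columns used. Motif letters were shortened after a search with longer forms. Scripts were tested on simulated data and used Python 3.11.15, pandas 2.3.3, R 4.3.3 and limma 3.58.1.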

Additional observations from a re-analysis of the deposited data

Results flagged for a closer look

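Ccnd2, which encodes cyclin D2, differed between the siRNAs in opposite directions in the treatments. Its levels were -4.54 with control siRNA and -2.93 with Ruvbl2 siRNA in DMSO, and -0.69 and -2.28 in LPS, so that the difference was 1.61 in DMSO and -1.59 in LPS. All 4 levels were well above background, 3 of them under a level of -2, and the change of direction was not tested.

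Outside the genes measured on both LPS arrays, 5 genes were well above background with a level of at least -2 on the Ruvbl2 siRNA LPS array and not above background on the control siRNA LPS array, against 0 genes the other way round. Hrh3, a histamine receptor gene, had a level of 0.32 there, at least 35.5-fold above the detection floor of the control siRNA LPS array, taken as the dimmest probe that was well above background there (-4.83). Skor1, a transcriptional corepressor gene, had -1.64 and Pklr, the pyruvate kinase of liver and red cells, -1.67. Gm31351, a predicted gene, had -1.80 and the olfactory receptor gene Olfr1324 -1.98. Each of these 5 genes was above background on none of the other 3 arrays, so each value rests on 1 array.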

How the results depend on the processing

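No called gene turned direction under any of the alternatives. Of 90 called genes that the text or its rule names, 22 fell short of 2-fold after normexp correction, and Mbd1 did so when its probes were averaged. The count of higher genes was 18 after normexp correction with quantile normalization, 65 with no level minimum, 22 with a level minimum of 0 and 231 at 1.5-fold. The count of lower genes was 71 after normexp correction and 401 at 1.5-fold, where 36.6% of called genes were higher in place of 24.8%. Cyclic loess called 30 higher and 121 lower genes, sharing 30 and 109 with the counts reported. The cause of these changes was not tested. The median of costimulatory and checkpoint molecules was -0.366 with a level minimum of 0, which left 12 of them. No paired analysis was possible because each group has 1 array and the samples carry no replicate numbers that pair them. Signal over background is the limit for genes such as Il6, Csf3 and Cda, whose Ruvbl2 siRNA level lay near or under -2.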

Other observations

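Small gene families outside the classes above differed as follows. All 8 measured serpins, a family of protease inhibitors, lay below 0 (median -0.25), as did 7 of 8 annexins, calcium-dependent membrane-binding proteins (median -0.30). Of 14 measured Snhg genes 3 lay below 0 (median 0.25), and Snhg18 was the called one (-1.01, or -0.63 with normexp correction). Zinc finger genes of the Zfp family had a median of 0.10 over 246 members, with 82 below 0. Circadian clock genes spread more widely about a median of 0.05 over 12 members. Of the 5278 measured probes without a gene name 18 were higher and 44 lower, beside 36 (0.336%) and 109 (1.02%) of the 10717 named genes.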
